A study of Mus musculus with 8 samples.

Results

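The expression of 10 genes of hepatic de novo lipogenesis and its transcriptional control was examined in RNA sequencing data from the fasted mouse liver. They were chosen by gene symbol: Srebf1, Mlxipl and Thrsp as regulators, Acly and Me1 as suppliers of carbon and NADPH, Acaca, Acacb and Fasn for malonyl-CoA and palmitate, and Elovl6 and Scd1 for elongation and desaturation. Each symbol was found once among the 45706 genes of the table, and all 10 were among the 14629 genes with enough counts to be tested. The livers came from 4 WT mice and 4 PLIN5 S155A mice, with 1 library per mouse. All 8 were female C57BL/6J mice of 4 months on regular chow that were fasted overnight, so there was no fed group. S155A mice carry alanine in place of a serine of perilipin 5, a lipid droplet protein that PKA phosphorylates at this serine, as a whole-body knock-in under the gene's own promoter. The change is therefore present in every tissue that expresses Plin5, not in the liver alone.

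De novo lipogenesis turns surplus carbohydrate into fatty acids. Citrate that leaves the mitochondria is split into acetyl-CoA, acetyl-CoA is carboxylated to malonyl-CoA, and fatty acid synthase joins these units into palmitate at the cost of NADPH, after which palmitate is elongated and desaturated. Srebf1 encodes SREBP-1, whose SREBP-1c form carries the insulin signal to this pathway in the liver. Mlxipl encodes ChREBP, which responds to carbohydrate metabolites. The pathway is low in the fasted liver and climbs on refeeding, so the values given here describe its fasted state.

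The promoter sequences of 4 genes are shown first, because Srebf1, Elovl6 and Acly were the members whose level separated the mice by the series of their animal numbers and Fasn is the central enzyme of the pathway. The sequences are from RefSeq on build GRCm38.p6, end before the transcription start, leave out annotated exons of the gene and are written 5′ to 3′ on the gene's strand. Capitals mark the letters CCAAT or their reverse complement, the CCAAT box to which NF-Y binds.
Srebf1, chr11:60210472-60210721, reverse strand: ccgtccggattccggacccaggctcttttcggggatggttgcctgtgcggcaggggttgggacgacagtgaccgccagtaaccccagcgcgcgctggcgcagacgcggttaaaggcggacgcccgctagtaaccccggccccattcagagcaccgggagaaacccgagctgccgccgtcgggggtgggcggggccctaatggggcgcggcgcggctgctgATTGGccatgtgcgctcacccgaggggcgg
Fasn, chr11:120824548-120824797, reverse strand: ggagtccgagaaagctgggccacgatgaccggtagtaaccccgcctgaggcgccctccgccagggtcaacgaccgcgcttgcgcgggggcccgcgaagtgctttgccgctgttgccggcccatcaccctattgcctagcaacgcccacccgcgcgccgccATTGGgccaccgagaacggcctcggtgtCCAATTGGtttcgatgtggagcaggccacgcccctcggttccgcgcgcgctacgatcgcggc
Elovl6, chr3:129532136-129532354, forward strand: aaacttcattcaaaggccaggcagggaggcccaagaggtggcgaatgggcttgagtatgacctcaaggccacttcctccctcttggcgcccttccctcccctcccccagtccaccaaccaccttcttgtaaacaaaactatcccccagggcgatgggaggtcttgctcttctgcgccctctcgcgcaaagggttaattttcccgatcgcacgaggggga
Acly, chr11:100528001-100528250, reverse strand: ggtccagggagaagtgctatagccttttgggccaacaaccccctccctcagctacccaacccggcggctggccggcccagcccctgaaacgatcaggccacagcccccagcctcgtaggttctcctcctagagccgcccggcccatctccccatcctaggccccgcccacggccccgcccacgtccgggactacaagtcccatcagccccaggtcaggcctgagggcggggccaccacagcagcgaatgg
RefSeq entries covered 13 starts of 9 members, and Scd1 had none in the table. In the 250 bases before the start, 7 of the 13 windows held CCAAT on either strand, against 33.8% of 32851 promoters of the same length. Fasn had 3 matches, which began 90, 62 and 59 bases before the start, and the last pair overlap. Srebf1 had 1 match 30 bases before the start shown and 1 match 166 bases before another of its starts, while a further start had none. The E box letters CACGTG stood in 1 window, that of Mlxipl, against 6.02% of all promoters. The sterol element core TCACNCCAC stood in 1 window, also of Mlxipl and at another of its starts, against 1.05% of all promoters. These 3 motifs were searched on both strands, and a match describes letters only.

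Total estimated counts ranged from 39709785 to 54540864 per library. Levels are in CPM, a gene's count relative to its TMM-scaled library total, and a fold change is the log2 difference S155A minus WT fitted by edgeR's quasi-likelihood test. Plin5, the edited gene, was at 254, 194, 183 and 194 CPM in WT mice and at 457, 276, 192 and 386 CPM in S155A mice, with overlapping groups. Its log2 fold change was 0.67 (standard error 0.24, unadjusted p = 0.0193, adjusted p = 0.993 by edgeR), ranking 162 among all genes. Summed hepatocyte markers were between 97913 and 136623 CPM in every mouse, and highest in S155A replicates 2 and 3, at 130664 and 136623 CPM. Of 6 adipocyte markers, 5 were too low to be tested, Lep had no count in any library and the sum was 2.70 to 6.12 CPM. A pair of libraries stood apart in genes of other tissues: 7 lymphocyte markers summed to 2054 CPM in S155A replicate 3, led by Ighm and Igkc, against 17.4 to 42.4 CPM in the other mice, and 5 pancreatic acinar markers summed to 18.9 CPM in WT replicate 2, against at most 0.554 CPM elsewhere. The animal numbers in the labels split the mice: replicates 1 and 4 of both genotypes have numbers from 89 to 123, the low series, and replicates 2 and 3 have numbers from 830 to 869, the high series. The labels do not say what the series stand for, so differences within each series of 2 against 2 mice are printed beside the pooled ones.

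None of the 10 genes differed between S155A and WT mice at an adjusted p of 0.05, and Scd1, the main liver stearoyl-CoA desaturase, had the smallest p. Over all genes 0 passed that threshold with edgeR, 497 (3.40%) were at an unadjusted p below 0.05, and DESeq2 called 6 (0.0411%), none of them a member. Scd1 was the 1 member at an unadjusted p below 0.05, and it was lower in S155A mice, where 1.98% of all genes were. Fold changes were positive for 5 genes and negative for 5, against 48.8% positive among all genes, with a median of -0.0079 where that of all genes was -0.0050. In no member were the groups apart, and 2.30% of all genes had groups that did not overlap. As these are bulk livers, fewer cells expressing a gene and less RNA per cell cannot be told apart.

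**Figure D1:**
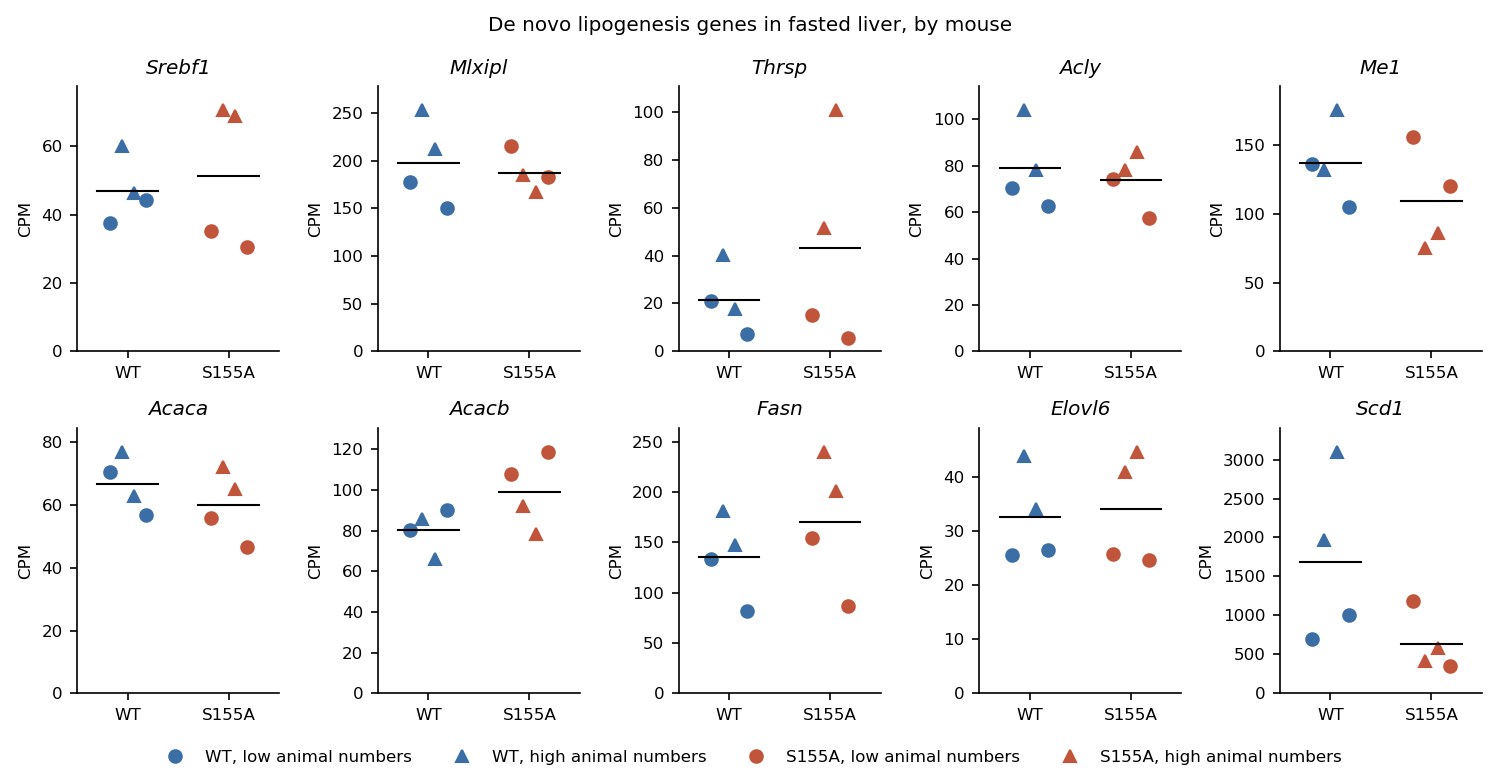
CPM of each gene by mouse, with WT and S155A mice on the horizontal axis, circles for low and triangles for high animal numbers, and a bar at the mean of 4 mice. Each panel starts at 0, WT and S155A mice overlap in all 10 panels, and Scd1 has the widest gap between the means, 1692 against 633 CPM.

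Levels between genes can be compared only per length, and on that scale Scd1 was far above the rest. Divided by the bases of its merged exons, Scd1 was at a mean of 238 CPM per kb over the 8 mice, with a range of 72.0 to 633. Mlxipl was at 34.8, Me1 at 32.1, Thrsp at 14.8, Acly at 14.5, Fasn at 14.0, Acacb at 9.33, Srebf1 at 8.73, Elovl6 at 5.18 and Acaca at 3.71 CPM per kb. Mlxipl (27.1 to 45.7 over mice) and Me1 (19.6 to 45.6) overlapped, as did Acly and Fasn, and Acacb (6.86 to 12.3) and Srebf1 (5.41 to 12.5). Thrsp ranged from 2.51 to 46.0 CPM per kb, which takes in the ranges of every other member but Scd1. Elovl6 (3.85 to 6.95) and Acaca (2.73 to 4.50) also overlapped, and their order turned with the length used: per kb of the longest transcript Acaca was at 6.65 and Elovl6 at 5.60, and Srebf1, at 11.4, passed Acacb, at 10.2.

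Among the regulators, Srebf1 (chr11:60199089-60222581, reverse strand, in GENCODE M21 on GRCm38, as for all genes here) was at 37.6, 60.0, 46.3 and 44.2 CPM in WT mice and at 35.3, 70.6, 68.9 and 30.5 CPM in S155A mice. The highest and the lowest values both belonged to S155A mice, and the WT values lay between them. The means were 47.0 ± 9.41 and 51.3 ± 21.4 CPM (SD, n = 4 each). The fitted difference was 0.13 on the log2 scale (standard error 0.28, 95% interval -0.49 to 0.74, adjusted p = 0.996 by edgeR), -0.31 among low and 0.40 among high animal numbers. The gene overlaps Rai1 on the other strand and 2 miRNA genes on its own strand.

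Mlxipl (chr5:135089890-135138382, forward strand) was at 177, 253, 212 and 150 CPM in WT mice and at 215, 185, 167 and 182 CPM in S155A mice. All S155A values fell inside the WT range, and the means were 198 ± 44.5 and 187 ± 19.9 CPM (SD, n = 4 each). The fold change was -0.08 (standard error 0.16, adjusted p = 0.996 by edgeR), with 0.28 in low and -0.40 in high mice, the opposite order to Srebf1. Without WT replicate 2 it was 0.06.

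Thrsp (chr7:97412938-97417730, reverse strand), which encodes Spot 14, a nuclear and cytosolic protein tied to lipogenic tissues, was the most variable member. It was at 21.0, 40.3, 17.5 and 7.28 CPM in WT mice and at 15.2, 51.3, 101 and 5.50 CPM in S155A mice. Replicate 4 was the lowest mouse in each genotype, and the highest mouse was 18.3 times the lowest. A fold change of 1.0 carried a standard error of 0.77 (95% interval -0.71 to 2.71, adjusted p = 0.993 by edgeR), and the within-series differences were -0.43 and 1.43. This value rested on S155A replicate 3, the library with lymphocyte genes, without which it was 0.16.

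Of the genes that supply carbon and reducing power, Acly (chr11:100476353-100528000, reverse strand), ATP citrate lyase, was at 70.5, 104, 78.3 and 62.7 CPM in WT mice and at 74.1, 78.1, 86.1 and 57.5 CPM in S155A mice. The groups covered much the same range, and the fold change was -0.09 (standard error 0.17, adjusted p = 0.996 by edgeR), with -0.03 and -0.14 in the low and high series. Me1 (chr9:86581371-86695953, reverse strand), cytosolic malic enzyme and a source of NADPH, was at 136, 132, 176 and 105 CPM in WT mice and at 156, 75.3, 85.9 and 121 CPM in S155A mice. The 2 S155A mice of the high series were the lowest of all 8. The means were 137 ± 29.1 and 109 ± 36.6 CPM (SD, n = 4 each), and the pooled fold change of -0.33 (standard error 0.23, adjusted p = 0.993 by edgeR) was made of 0.20 within the low and -0.92 within the high series. Without S155A replicate 1 it was -0.55 (unadjusted p = 0.0272 by edgeR), while it was -0.18 without S155A replicate 2 and -0.19 without WT replicate 3.

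Acaca and Acacb encode the acetyl-CoA carboxylases. The product of Acaca feeds synthesis in the cytosol, while that of Acacb, at the mitochondrial surface, holds back carnitine palmitoyltransferase and so fatty acid oxidation. Acaca (chr11:84129672-84401651, forward strand) was at 70.3, 76.8, 62.8 and 56.9 CPM in WT mice and at 55.9, 72.0, 65.1 and 46.6 CPM in S155A mice, with a fold change of -0.16 (standard error 0.15, adjusted p = 0.993 by edgeR). The difference was -0.31 among low and -0.02 among high animal numbers, and the fold change ran from -0.25 without S155A replicate 2 to -0.05 without S155A replicate 4. Acacb (chr5:114146535-114250761, forward strand) was at 80.5, 85.6, 66.1 and 90.0 CPM in WT mice and at 108, 92.4, 78.2 and 119 CPM in S155A mice. All S155A mice but replicate 3 were above every WT mouse. Acacb had the second smallest p of the members, with a fold change of 0.30 (standard error 0.15, 95% interval -0.03 to 0.63, unadjusted p = 0.0688, adjusted p = 0.993 by edgeR), and the difference was positive in both series, 0.41 and 0.18. Means were 80.5 ± 10.4 and 99.3 ± 17.7 CPM (SD, n = 4 each), and p was 0.171 in a two-sided exact permutation test, where 4 mice against 4 allow no p below 0.0286.

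Fasn (chr11:120805846-120824547, reverse strand), fatty acid synthase, was at 133, 181, 147 and 82.1 CPM in WT mice and at 154, 240, 201 and 86.9 CPM in S155A mice. In each genotype replicate 2 was the highest and replicate 4 the lowest. The means of 136 ± 41.2 and 170 ± 65.8 CPM (SD, n = 4 each) gave a fold change of 0.33 (standard error 0.31, adjusted p = 0.993 by edgeR), with 0.15 within the low and 0.43 within the high series. It ran from 0.12 without S155A replicate 2 to 0.55 without S155A replicate 4, and was 0.15 without WT replicate 4 and 0.50 without WT replicate 2.

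Elovl6 (chr3:129532355-129638495, forward strand), the elongase that takes palmitate to stearate, was at 25.6, 43.9, 34.2 and 26.6 CPM in WT mice and at 25.8, 41.0, 44.7 and 24.8 CPM in S155A mice. The genotypes covered the same range, with a fold change of 0.06 (standard error 0.23, 95% interval -0.46 to 0.59, adjusted p = 0.996 by edgeR). The difference was -0.05 among low and 0.14 among high animal numbers, and the sign of the pooled value turned when any of 4 single mice was left out.

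Scd1 (chr19:44394455-44407879, reverse strand), which introduces the double bond that makes oleate from stearate, was at 701, 1962, 3095 and 1010 CPM in WT mice and at 1190, 412, 580 and 352 CPM in S155A mice. WT replicate 3 was the highest mouse and 3 S155A mice were below every WT mouse, while S155A replicate 1 lay above 2 of the WT mice. The means were 1692 ± 1078 and 633 ± 383 CPM (SD, n = 4 each), a 2.67-fold lower fitted level in S155A mice. The fold change of -1.42 had a standard error of 0.50, a 95% interval of -2.53 to -0.30 and an unadjusted p of 0.0176, and an adjusted p of 0.993 by edgeR, ranking 143 among all genes. Its two-sided exact permutation p was 0.0857. The difference was -0.38 within the low and -2.33 within the high series. Without WT replicate 3 the fold change was -0.95 (unadjusted p = 0.0693 by edgeR), and without both libraries that held genes of other tissues it was -1.30 (unadjusted p = 0.0697 by edgeR). Scd1 took between 99.22% and 99.9% of the counts of the 4 mouse Scd genes in each library, and its paralog Scd2 was at 129 to 237 counts.

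**Figure D2:**
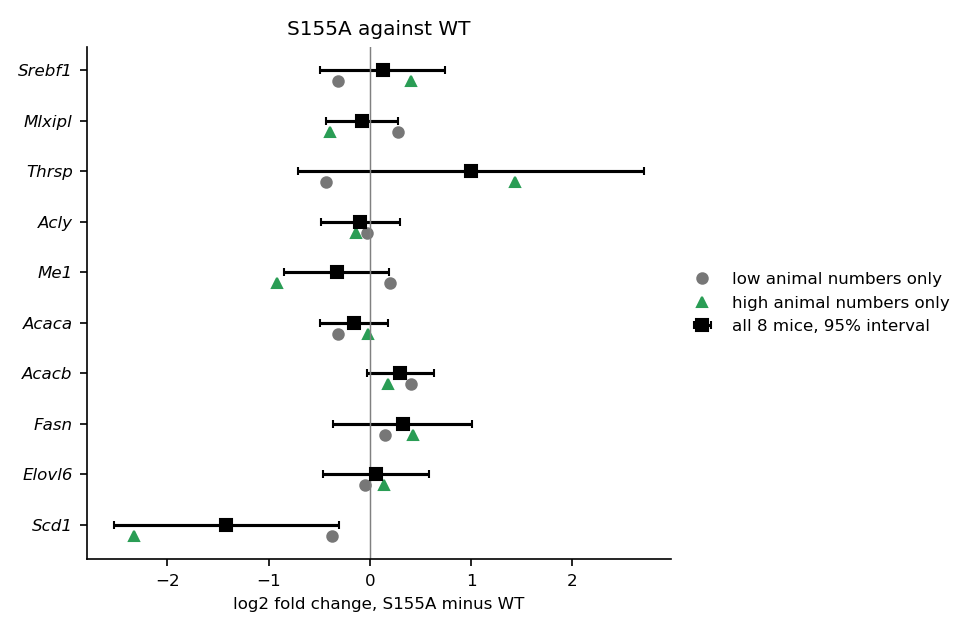
Log2 fold change of each gene, S155A minus WT, over all 8 mice (squares, with 95% intervals from edgeR) and the difference in mean log2 CPM within low (circles) and high (triangles) animal numbers. The interval of Scd1, -2.53 to -0.30, is the 1 that leaves out 0, and Srebf1, Mlxipl, Thrsp and Me1 have the circle and the triangle on opposite sides of 0, each more than 0.1 away from it.

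The members were then compared between the animal number series, in a fit that also held genotype. Of the 10 genes, 5 were higher in the high series at an unadjusted p below 0.05 (Srebf1, Thrsp, Acly, Fasn and Elovl6), where 6.64% of all genes were, and 1 was lower (Acacb, log2 difference -0.29), where 6.19% were. The median log2 difference, high minus low, was 0.43 over the members and -0.0045 over all genes. With edgeR 0 genes passed an adjusted p of 0.05 in this comparison, 38 (0.260%) passed 0.1, Elovl6 among them, and 1877 (12.8%) were at an unadjusted p below 0.05. DESeq2 called 406 of the genes it tested (3.53%) at an adjusted p of 0.05, Srebf1, Fasn and Elovl6 among them. Whether the series are cohorts, litters or days is not given, and with series as a term the genotype fold changes were 0.04 for Srebf1, 0.49 for Thrsp and -1.25 for Scd1.

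Elovl6 had the smallest p of the members. Its 4 mice of the low series were at 24.8 to 26.6 CPM and the 4 of the high series at 34.2 to 44.7 CPM, without overlap. In 3 members all high mice were above all low mice, as in 3.53% of all genes. The log2 difference was 0.67 (standard error 0.10, adjusted p = 0.0678 by edgeR), 0.57 within WT mice and 0.76 within S155A mice. Srebf1 was also apart, at 30.5 to 44.2 CPM in the low and 46.3 to 70.6 CPM in the high series, with a log2 difference of 0.73 (standard error 0.16, adjusted p = 0.163 by edgeR). Acly, the third gene without overlap, differed by 0.39 (standard error 0.13, adjusted p = 0.273 by edgeR). Fasn differed by 0.74 (standard error 0.21, adjusted p = 0.233 by edgeR) and Thrsp by 1.95 (standard error 0.56, adjusted p = 0.240 by edgeR), both with overlap.

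**Figure D3:**
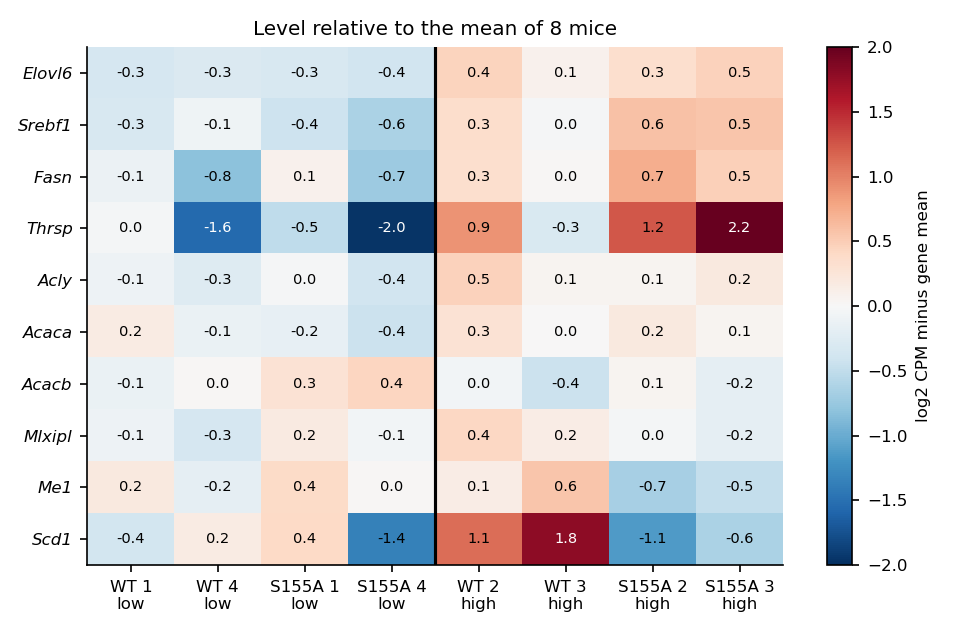
Log2 CPM of each gene (rows) minus its mean over the 8 mice, with mice in columns named by genotype and replicate number, low animal numbers left and high animal numbers right of the line; colours are cut at 2 and -2. Elovl6 is below its mean in every mouse on the left and above it in every mouse on the right, while Me1 and Scd1 are above their mean in WT mice and below it in S155A mice of the high series.

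The genotype difference itself varied with the series for 4 members at an unadjusted p below 0.05 of the interaction term, where 11.1% of all genes did (1622), 6.02% with a positive and 5.07% with a negative term. With edgeR 0 genes had an adjusted p below 0.05 for this term, and with DESeq2 285 (2.07%) did. Scd1 was 1.55 higher on the log2 scale in high than in low mice within WT and -0.41 within S155A (interaction -2.20, standard error 0.70, adjusted p = 0.323 by edgeR). Me1 went the same way, with 0.35 within WT and -0.77 within S155A (interaction -1.13, standard error 0.28, adjusted p = 0.282 by edgeR), and DESeq2 put this term at an adjusted p of 0.0183. Mlxipl had an interaction of -0.68 (standard error 0.22, adjusted p = 0.323 by edgeR). Srebf1 had the opposite sign, 0.70 (standard error 0.22, adjusted p = 0.325 by edgeR). S155A mice of the high series thus combined the highest Srebf1 levels of all mice, 70.6 and 68.9 CPM, with the lowest Me1 levels and with Scd1 at 412 and 580 CPM. Each of these cells holds 2 mice. The 2 S155A mice of the high series have the animal numbers 830 and 831, against 856 and 869 for the WT mice. The libraries of these S155A mice were also the most alike of any pair, at a chi-square per gene of 40.2. Whether they share a litter or a batch is not given, so such an effect cannot be told apart from genotype in these values.

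Variation between mice was then compared between genes over the 8 livers, as Pearson's r and Spearman's rho of log2 CPM with exact permutation p-values, for 17 relations of the members with Srebf1 and Mlxipl. The permutations ran over all 8 mice without regard to series, while Srebf1 did not overlap between the series. The p-values with Srebf1 therefore also take in the difference between the series. Thrsp had r = 0.86 (exact permutation p = 0.00744, adjusted 0.0632) and rho = 0.86 (exact permutation p = 0.0107, adjusted 0.0911) with Srebf1. Its r was 0.70 without the 2 mice farthest from the median of Srebf1 and 0.61 after the mean of each series was subtracted. Fasn had r = 0.77 (exact permutation p = 0.0279, adjusted 0.139) and rho = 0.76 (exact permutation p = 0.0368, adjusted 0.156) with Srebf1. Its r was 0.52 without those mice and 0.34 after subtraction. Elovl6 with Srebf1 was the 1 relation of the 17 past an adjusted p of 0.05, but the mice fell into 2 separate clusters of Elovl6, the series, between 26.6 and 34.2 CPM. No pooled r is therefore read from it, and the series-centred r was 0.78.

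Acaca and Acly were close to Fasn, with r of 0.73 and 0.72 with Srebf1 (exact permutation p = 0.0402 and 0.0410, both adjusted 0.139). After subtraction of series means these were 0.46 and 0.17. Acacb had r = -0.48 (exact permutation p = 0.227) and Mlxipl r = 0.06 (exact permutation p = 0.889) with Srebf1. For the desaturase and malic enzyme r was also lower than for Thrsp, Fasn, Acaca and Acly. Scd1 had r = 0.04 (exact permutation p = 0.928, adjusted 0.928) and rho = 0.05 (exact permutation p = 0.935, adjusted 0.977) with Srebf1, 0.78 without the 2 farthest mice and -0.42 after subtraction of series means. Me1 had r = -0.62 (exact permutation p = 0.103, adjusted 0.251) and rho = -0.52 (exact permutation p = 0.197, adjusted 0.413), 0.07 without those mice and -0.79 after subtraction of series means. With Mlxipl, Acly, Scd1 and Me1 had r of 0.64 (exact permutation p = 0.0823), 0.58 (exact permutation p = 0.132) and 0.54 (exact permutation p = 0.165), none past an adjusted p of 0.05, and rho of 0.48, 0.50 and 0.50. Without the 2 mice farthest from the median of Mlxipl, r was -0.01 for Acly, so that this relation rested on them, 0.74 for Scd1 and 0.72 for Me1.

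**Figure D4:**
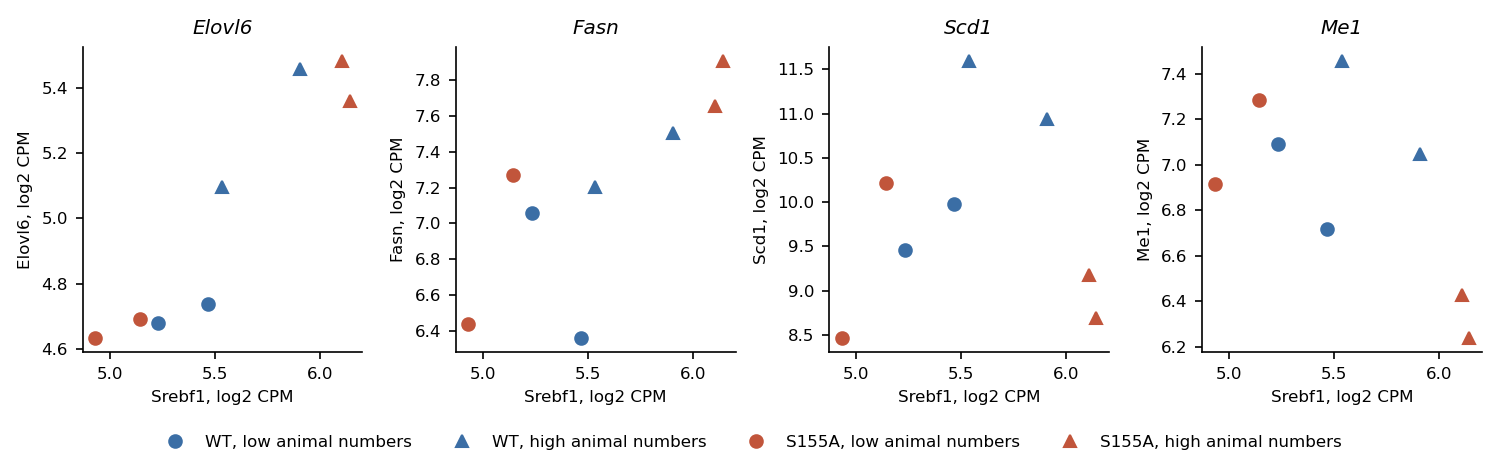
Log2 CPM of Elovl6, Fasn, Scd1 and Me1 (vertical axes) against log2 CPM of Srebf1 (horizontal axes) in the 8 mice, WT in blue and S155A in red, circles for low and triangles for high animal numbers. Elovl6 falls into 2 clusters, the series. The 2 S155A mice with the highest Srebf1 have the highest Fasn, while WT replicate 4 has the lowest Fasn at a middle Srebf1 level. In the Scd1 and Me1 panels those 2 S155A mice lie at the bottom right.

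The 5 genes most like Srebf1 in their pattern over the 8 mice, outside the members, were Trim21 (r = 0.97), Copz1 (0.96), H2-T22 (0.96), Cnpy3 (0.96) and Mcl1 (0.96), of all genes with a mean of at least 1 CPM. These r describe likeness over mice of 2 series and carry no test. Copz1 was at 103 to 114 CPM in the low and 123 to 150 CPM in the high series. The series overlapped for H2-T22 (88.6 to 113 CPM in the low and 112 to 156 CPM in the high series) and Cnpy3 (40.6 to 49.0 and 45.8 to 64.1 CPM).

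The genes around the pathway were summarised by lists that had been chosen with earlier results known. Of 12 genes that control SREBP-1c and ChREBP, 6 had positive and 6 negative fold changes and none reached an unadjusted p of 0.05 (median 0.0091). Insig1, the ER protein that retains the SREBP-SCAP complex, had the smallest p of this list, with 37.3, 69.1, 43.0 and 30.9 CPM in WT mice and 26.0, 177, 142 and 28.7 CPM in S155A mice. Its fold change was 1.05 (standard error 0.59, unadjusted p = 0.103, adjusted p = 0.993 by edgeR), and both S155A mice of the high series were above all others.

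None of the 8 genes for citrate, acetyl-CoA and NADPH supply (6 positive, median 0.02), the 7 for glucose and fructose entry (2 positive, median -0.06), the 8 further lipogenic SREBP-1c targets (5 positive, median 0.06) or the 8 for malonyl-CoA control (4 positive, median -0.01) reached an unadjusted p of 0.05. The smallest p in these lists belonged to Acss2, cytosolic acetyl-CoA synthetase (fold change 0.25, unadjusted p = 0.154 by edgeR), to Pklr, the liver pyruvate kinase (-0.17, unadjusted p = 0.411 by edgeR), to Lpin1, a phosphatidate phosphatase (0.54, unadjusted p = 0.287 by edgeR), and to Prkaa1, a catalytic subunit of AMPK (-0.24, unadjusted p = 0.120 by edgeR). Pklr, like Me1 and Mlxipl, was higher in S155A mice of the low series, by 0.26, and lower in those of the high series, by -0.51.

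The sterol genes, which SREBP-2 drives, had the highest median of these lists. Of 22, 21 had a positive fold change, against 48.8% of all genes. At an unadjusted p below 0.05 were 9, all higher in S155A mice, where 1.42% of all genes were, though none passed an adjusted p of 0.05. Their median was 0.73 over all mice, 0.04 within the low and 1.15 within the high series. Within the high series all 22 were higher, as were 7151 of the 14629 genes tested. The 2 S155A mice of the high series carry consecutive animal numbers, and anything they share besides genotype cannot be told apart from it. Hsd17b7, an enzyme of cholesterol synthesis, had the smallest p and was at 42.6 to 48.2 CPM in WT and 52.2 to 74.2 CPM in S155A mice. The groups did not overlap, as in 2.30% of all genes (fold change 0.44, standard error 0.12, unadjusted p = 0.00427, adjusted p = 0.993 by edgeR). Within the high series the median of the 10 fatty acid genes was 0.06, with values from -2.33 for Scd1 to 1.43 for Thrsp. The difference between the lists was not tested. Markers of other cells had these values in the same mice, as differences in mean log2 CPM. Within the high series all 6 Kupffer cell markers were higher in S155A mice (median 0.94, and -0.40 within the low series). So were all 7 lymphocyte markers (median 1.38, and -0.03 within the low series), and 0 of 4 stellate cell markers (median -0.62, and -0.30 within the low series). Of 7 hepatocyte markers 5 were higher there (median 0.38, and -0.10 within the low series), and of 3 red blood cell markers 0 (median -0.53, and -0.08). Of 4 endothelial cell markers 2 were higher (median -0.16, and -0.18), and of 4 cholangiocyte markers 1 (median -0.05, and -0.11). Summed lymphocyte markers were at 35.3 and 2054 CPM in S155A replicates 2 and 3, against 18.2 and 19.2 CPM in WT replicates 2 and 3. Summed stellate cell markers were at 87.1 and 195 CPM in those S155A mice, against 196 and 207 CPM in those WT mice. In each of these lists 1 S155A library stood out, replicate 3 for lymphocyte and replicate 2 for stellate cell markers. Summed Kupffer cell markers were at 149 to 305 CPM in WT and 168 to 360 CPM in S155A mice, summed stellate cell markers at 196 to 272 and 87.1 to 207 CPM, and their part in the differences within the high series, those of Scd1 and Me1 included, was not tested.

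Of 10 genes of the fasting and insulin state, 4 had positive and 6 negative fold changes (median -0.07) and 1 reached an unadjusted p of 0.05. This was G6pc, glucose-6-phosphatase, at 213, 242, 335 and 451 CPM in WT mice and at 154, 181, 195 and 208 CPM in S155A mice. Every S155A mouse was below every WT mouse, where 2.30% of all genes had groups that did not overlap in either direction. The fold change was -0.75 (standard error 0.22, unadjusted p = 0.00655, adjusted p = 0.993 by edgeR), with -0.80 and -0.60 in the low and high series. At an unadjusted p below 0.05 by edgeR, 1.98% of all genes were lower. The paper reports no change of G6pc by qPCR in livers of young male or female S155A mice.

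**Figure D5:**
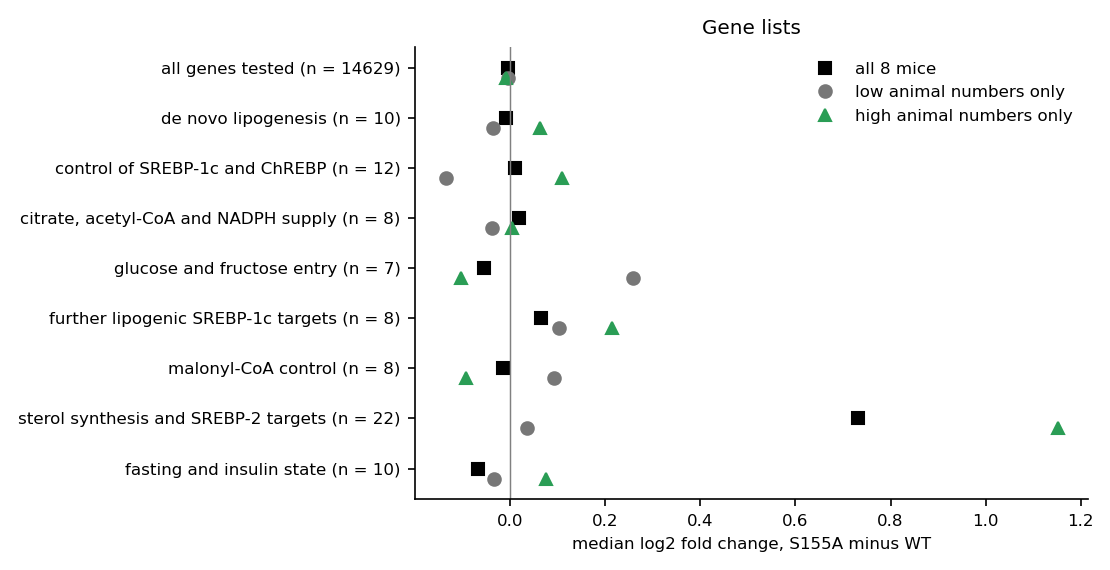
Median log2 fold change, S155A minus WT, of all genes tested, of the 10 members and of the 7 lists of neighbouring genes, over all 8 mice (squares) and as the difference within low (circles) and high (triangles) animal numbers. The list of sterol genes stands apart, at 0.73 over all mice and 1.15 in the high series, while the members are at -0.0079 and 0.06.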

How the data were processed

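RNA of 8 fasted livers (4 WT, 4 S155A) was read as stranded mRNA libraries of 100 bp pairs. The values deposited by the authors are salmon's estimated counts, summed per gene and scaled for transcript length between samples but not for depth. The submitters' processing notes list bcl2fastq, STAR, SAMtools, MultiQC, DESeq2 and GRCm38. The salmon version, the annotation and the use of strand are not given in the sources used here, so reads of genes that overlap on opposite strands may not be separated. The labels name hepatocytes as cell type and liver as tissue.

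Counts were rounded and filtered with filterByExpr (14629 of 45706 genes), scaled by TMM and tested with edgeR 4.0.16 (R 4.3.3), with Benjamini-Hochberg adjustment over all genes tested. Log2 CPM used a prior count of 2. Animal number series and its interaction with genotype were tested in the same way. The genotype fit was tested on simulated data, while the series and interaction fits were not. No 2 libraries were copies, the smallest chi-square per gene being 40.2, where sampling noise gives about 1. Coordinates are those of GENCODE M21.

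Members and lists were chosen with earlier results of these data known. Genes were named by a rule: Plin5, the members, the gene of each list with the smallest p, and the 5 genes with the highest r with Srebf1. Alternatives were DESeq2 1.42.0, limma-voom 3.58.1, 3 other scalings, 2 other filters, a robust fit, terms for replicate number and series, and leaving out each mouse, and, chosen after seeing the data, leaving out both libraries with genes of other tissues.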

Additional observations from a re-analysis of the deposited data

Results flagged for a closer look

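The genotype difference of 4 members differed between mice of low and high animal numbers by an interaction term at an unadjusted p below 0.05, with 2 mice of each genotype per series, and none of the 4 passed an adjusted p of 0.05 with edgeR. The interaction, on the log2 scale, was -2.20 for Scd1 (unadjusted p = 0.0126, adjusted p = 0.323 by edgeR), where WT mice of the high series were at 1962 and 3095 CPM and S155A mice at 412 and 580 CPM. It was -1.13 for Me1 (unadjusted p = 0.00353, adjusted p = 0.282 by edgeR), which was at 132 and 176 CPM against 75.3 and 85.9 CPM in those mice. For Mlxipl it was -0.68 (unadjusted p = 0.0126, adjusted p = 0.323 by edgeR) and for Srebf1 0.70 (unadjusted p = 0.0129, adjusted p = 0.325 by edgeR). Without single mice these values ranged from -2.83 to -1.07 for Scd1, from -1.33 to -0.91 for Me1, from -0.80 to -0.55 for Mlxipl and from 0.53 to 0.90 for Srebf1. S155A replicate 3 and WT replicate 2, the libraries with lymphocyte and pancreatic genes, are both in the high series, and their part in these values was not tested beyond leaving each out. The S155A mice of the high series carry consecutive animal numbers, and a litter or batch they may share cannot be told apart from genotype. In a search for single mice far from the other 3 of their group, over 20 groups of members, 0 were found, where chance gives about 1.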

How the results depend on the processing

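With DESeq2, 6 genes passed an adjusted p of 0.05 between genotypes, 406 between the series and 285 for the interaction, against 0 each with edgeR, and no member was among the 6. DESeq2 put Srebf1 (0.73), Fasn (0.74) and Elovl6 (0.67) past that threshold between the series, and Me1 (-1.13) in the interaction. With series as a term, 2 members were at an unadjusted p below 0.05 between genotypes, Scd1 and Acacb. The replicate block gave 3 members, Acacb, Fasn and Scd1, against 1 without it, and 0 genes at an adjusted p of 0.05. Same-numbered mice correlated by 0.056, 0.166, -0.111 and 0.129 in their deviations from the group means, and 3 of 4 matched their own number best. As replicate numbers also follow the series, this does not decide whether the mice were paired. WT and S155A replicate 4 carry the consecutive animal numbers 89 and 90. Their libraries had a chi-square per gene of 55.2, against 55.3 for WT replicate 3 and S155A replicate 1. The main fit took no pairs. Leaving out each mouse gave 0 to 2 members at an unadjusted p below 0.05, 3 to 7 positive fold changes, a median of -0.11 to 0.16, 0 to 111 genes at an adjusted p of 0.05 between the series (111 without WT replicate 3, which put Srebf1 at 0.88 and Elovl6 at 0.76 past it) and 0 to 40 for the interaction (40 without WT replicate 4). Fold changes then ran from -0.060 to 0.31 for Srebf1, -0.19 to 0.061 for Mlxipl, -0.19 to 0.069 for Acly and -0.092 to 0.24 for Elovl6, and interactions from -0.12 to 0.73 for Fasn and -0.32 to 0.085 for Acly. Without both libraries that held genes of other tissues, Mlxipl was at 0.11, and Acacb (0.43) was the 1 member at an unadjusted p below 0.05. Of 190 fold changes of members under 19 alternatives, 180 kept their direction and side of the adjusted threshold, 10 changed sign, and the smallest adjusted p was 0.798. The cause of these shifts was not tested. With 4 mice a group, the standard errors of members ran from 0.15 for Acacb to 0.77 for Thrsp on the log2 scale.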

Other observations

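Among the neighbouring genes, 1 that was chosen after its values were seen varied widely between mice. Insig2, an ER protein that retains the SREBP-SCAP complex and is known to be higher in the fasted liver, was at 350 to 471 CPM in the low series and 105 to 262 CPM in the high series without overlap. Its log2 difference between the series was -1.25 (standard error 0.19, adjusted p = 0.0658 by edgeR), -1.09 within WT mice and -1.48 within S155A mice, and the genotypes differed by -0.40 (standard error 0.43, adjusted p = 0.993 by edgeR).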
